A study of Arabidopsis thaliana with 16 samples.

Results

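The transcripts of 10 translation initiation factors of the eIF4 and eIF3 groups were followed in leaves of Arabidopsis thaliana. The members were chosen by their locus codes, with earlier results of these arrays known, and no threshold on a measured value is part of the choice. They are 10 of the 27826 probe sets measured, and every one of them had a probe set. The members are EIF4E (AT4G18040), EIFISO4E (AT5G35620), EIF4G (AT3G60240), eIFiso4G1 (AT5G57870), eIFiso4G2 (AT2G24050), EIF4A1 (AT3G13920), EIF3A (AT4G11420), EIF3C (AT3G56150), EIF3E (AT3G57290) and EIF3H (AT1G10840). Because they were proposed with the results in view, the adjusted p-values below describe each gene and are no independent support for a statement on the group.

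Translation of most plant mRNAs begins when a cap-binding protein recognises the 5′ cap, a scaffold protein joins it to an RNA helicase, and the small ribosomal subunit is brought in through eIF3. Plants have a pair of such cap-binding complexes: eIF4F, built from eIF4E and eIF4G, and the plant form eIFiso4F, built from eIFiso4E and eIFiso4G. The helicase eIF4A unwinds structure in the leader of the mRNA, and eIF3 is a large complex of many subunits that holds the small ribosomal subunit and the scaffold together.

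The study compared lines aimed at NatA, an enzyme complex that acetylates the N-terminus of many proteins while they are made. WT, a line carrying an artificial microRNA against NAA10, the catalytic subunit of NatA (amiNAA10), and a pair of T-DNA lines of HYPK, a partner protein of NatA, with the insertion in exon 1 or exon 2, were each measured on 4 arrays. The series text calls the HYPK lines knockouts. All plants were untreated and 6 weeks old, from soil under short days (8.5 h light, 22 °C; nights 18 °C). The labels give neither the ecotype, nor the promoter of the microRNA, nor how many lines or plants stand behind the 4 arrays of a genotype, so the spread that p-values rest on may be that of technical repeats.

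All values are log2 expression values of RMA, an array method with background correction, a common distribution for all arrays and 1 summary value per probe set. Differences are the first group minus the second on the same log2 scale. A gene rose or fell where its adjusted p from limma, over all 27826 probe sets, was under 0.05. All comparisons against WT use the same 4 WT arrays. In bulk leaf RNA, a change in the share of a cell type and a change of RNA per cell cannot be told apart. The NAA10 transcript (AT5G13780) fell by 2.07 in amiNAA10 against WT (SE 0.12, adjusted p = 2.46e-08). The HYPK transcript (AT3G06610) was lower in the exon 1 line (-0.94, SE 0.13, adjusted p = 0.000155) and not called in the exon 2 line (-0.26, adjusted p = 0.191), so it gives no check of the exon 2 label. Its mean was 5.66 in WT, 5.40 in the exon 2 line and 5.34 in amiNAA10, so it does not set the exon 2 line apart from amiNAA10. Within a genotype, array pairs had r of 0.974 to 0.990. On the first principal component, replicate 4 of the exon 2 line stood apart from the line's other arrays (-44.3, against -1.87 to 15.5). It was not the only array to do so. In amiNAA10, replicate 2 was at -57.4, against -34.9 to -30.9 on the other arrays. In the exon 1 line, replicates 2 and 3 were at -32.5 and -27.2, and replicates 1 and 4 at -0.01 and -5.34. The values of -44.3 and -32.5 lie within the amiNAA10 range. Member calls for both HYPK lines averaged against WT are given with and without exon 2 line replicate 4. For single loci outside the members, no value without it is given. Of 42 other translation loci, 5 differed between the exon 2 line and WT by limma with the array and 3 without it. Leaf markers RBCS1A, CAB1, RCA and CA1 averaged 11.18 to 11.73 on every array, and 5 markers of root, flower and seed averaged 1.74 to 2.52.

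In leaves with less NAA10 transcript, the scaffold, helicase and some eIF3 transcripts were higher, and no member was lower. EIF4G, eIFiso4G1, eIFiso4G2, EIF4A1, EIF3A and EIF3E rose by 0.38 to 0.84, or 1.31-fold to 1.79-fold. The cap-binding factors EIF4E and EIFISO4E and the subunits EIF3C and EIF3H were not called. That is 6 of 10 members higher and 0 lower, beside 15.4% of all probe sets higher and 15.4% lower. For each of the 6, all 4 amiNAA10 arrays lay above all WT arrays, which gives an exact permutation p of 0.0286, the smallest that 4 arrays against 4 allow. Of all probe sets, 30.6% had no overlap in this comparison, in either direction. The median difference of the members was 0.44, against -0.02 over all probe sets. Because the members were chosen with results known, nothing is read from this excess.

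In the HYPK lines fewer members were called. In the mean of both lines against WT, 3 of 10 members rose (EIF4G, eIFiso4G1 and EIF4A1) and 0 fell, beside 11.2% of all probe sets higher and 11.5% lower. The rises were 0.29 to 0.41, or 1.22-fold to 1.33-fold, and the median difference of all members was 0.11, against -0.01 over all probe sets. Taken singly, the exon 1 line had 1 called member, eIFiso4G1, beside 9.69% of probe sets higher and 9.89% lower. The exon 2 line had 0 by limma, beside 7.03% higher and 6.82% lower. At an unadjusted p under 0.05 limma gave 3 members in the exon 1 line and 3 in the exon 2 line, near the shares of all probe sets at that threshold in either direction (32.0% and 28.0%). The exact permutation test gave 4 members in each line (EIF4G, eIFiso4G1, EIF4A1 and EIF3E), those whose arrays did not overlap WT, beside 22.4% and 17.2% of all probe sets without overlap. For the mean of both lines, against WT or amiNAA10, the share of all probe sets without overlap was not counted. Between the exon 1 and exon 2 lines, limma called 0 members, also at an unadjusted p under 0.05, and the exact permutation test gave 0. Over all probe sets, 0% were higher and 0.00719% lower in that comparison, 4.38% had an unadjusted p under 0.05 and 2.17% had no overlap of arrays. The HYPK calls are fragile: without exon 2 line replicate 4, 0 members were called in the mean of both lines, and 0 also without exon 1 line replicate 2 or without WT replicate 1, 2 or 3. They also depend on scaling. Centred on 4 reference genes (PP2AA3, UBC9, MON1 and AT4G34270), the median of all probe sets shifted by -0.12 in this comparison, the share of calls that were higher went from 49.2% to 30.2%, and 0 members were called. In the single lines that share went from 49.5% to 35.7% (exon 1) and from 50.8% to 25.9% (exon 2).

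**Figure D1:**
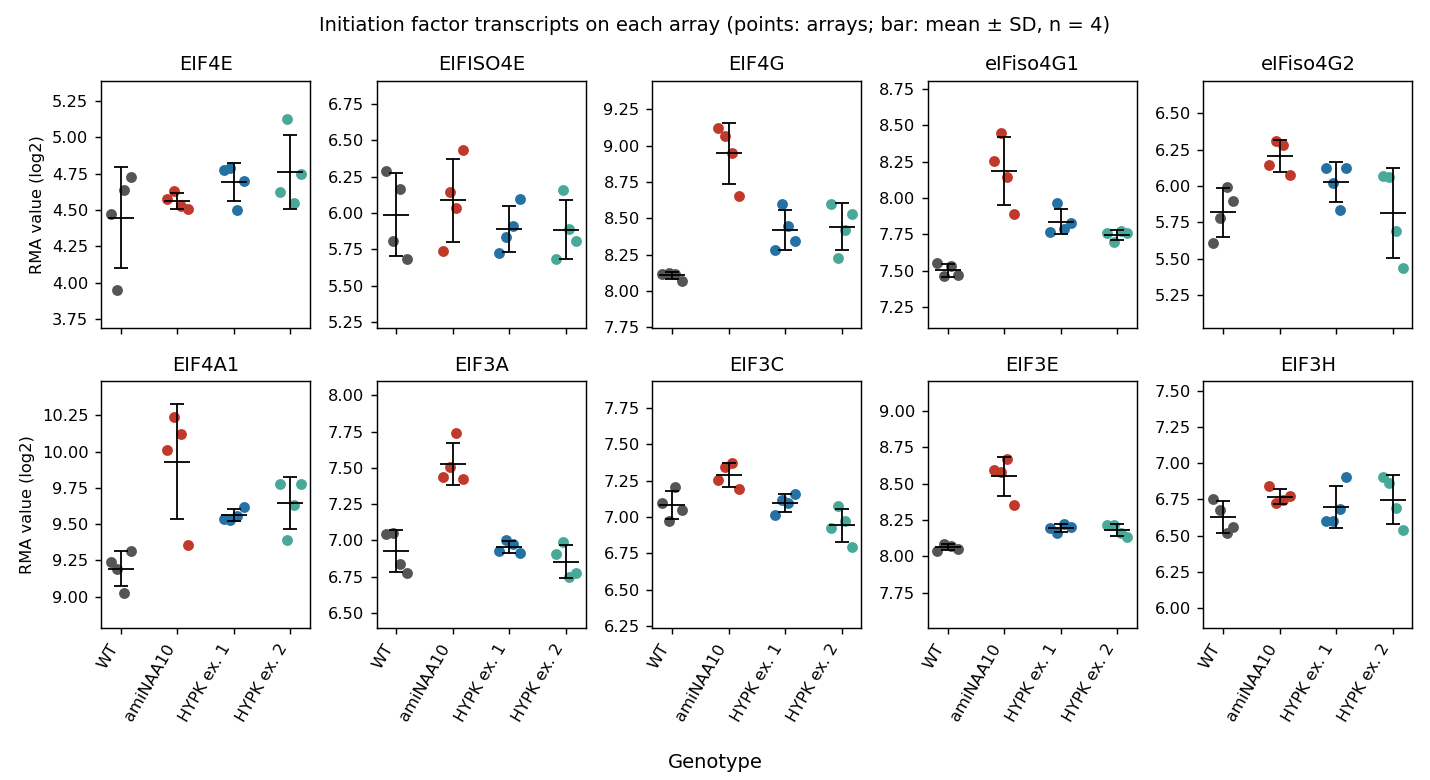
RMA expression values (log2, vertical axis) of the 10 initiation factors on each of the 16 arrays, by genotype; points are arrays and the bar is the mean ± SD of 4 arrays. Each panel spans the same range of log2 units around its own centre, so heights are comparable as differences and not as levels between genes. For EIF4G, the WT arrays lie at 8.07 to 8.12 and the amiNAA10 arrays at 8.65 to 9.12, with the HYPK arrays between them.

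Among the scaffold proteins, EIF4G, the large scaffold of eIF4F, had the largest rise in amiNAA10. Its WT arrays read 8.12, 8.12, 8.12 and 8.07 in order of replicate number, and its amiNAA10 arrays 9.12, 9.07, 8.95 and 8.65. The exon 1 line read 8.28, 8.60, 8.45 and 8.35, and the exon 2 line 8.60, 8.22, 8.42 and 8.53. No array of a mutant line overlapped WT, and no HYPK array reached the lowest amiNAA10 array. Against WT, EIF4G rose by 0.84 in amiNAA10 (SE 0.12, adjusted p = 6.65e-05, 4 of 4 arrays above all WT arrays). In the mean of both HYPK lines it rose by 0.32 (SE 0.10, adjusted p = 0.0318, 8 of 8 arrays above WT; 0.31, adjusted p = 0.0528, without exon 2 line replicate 4). With reference genes that difference was 0.21 (adjusted p = 0.202). The call was lost in 8 of the 16 fits that leave out 1 array, with adjusted p up to 0.0721. The single HYPK lines differed from WT by 0.31 and 0.34, neither called (adjusted p = 0.0773 and 0.0708), although the exon 2 line was without exon 2 line replicate 2 (0.41, adjusted p = 0.0390) or amiNAA10 replicate 4 (adjusted p = 0.0475).

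eIFiso4G1, the main scaffold of the plant complex eIFiso4F, was likewise lowest in WT and highest in amiNAA10 by its means. WT arrays read 7.55, 7.46, 7.53 and 7.47, and amiNAA10 arrays 8.26, 8.45, 8.15 and 7.89. The exon 1 arrays were at 7.77, 7.96, 7.79 and 7.83, and the exon 2 arrays at 7.76, 7.70, 7.77 and 7.76. All mutant arrays were above all WT arrays, while the highest exon 1 array passed the lowest amiNAA10 array. The rise in amiNAA10 was 0.68 (SE 0.11, adjusted p = 0.000180). In the exon 1 line it was 0.34 (SE 0.11, adjusted p = 0.0395), a call that ended when any single WT array was left out (adjusted p = 0.0621 to 0.0842). It ended as well without exon 1 line replicate 2, 3 or 4, and with reference genes (0.24, adjusted p = 0.206). The exon 2 line differed by 0.24 (adjusted p = 0.151). For the mean of both HYPK lines the rise was 0.29 (SE 0.09, adjusted p = 0.0353; 0.29, adjusted p = 0.0516, without exon 2 line replicate 4; 0.17, adjusted p = 0.269, with reference genes). That call was lost in 7 of the 16 fits that leave out 1 array, with adjusted p up to 0.0874.

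eIFiso4G2 encodes the second scaffold of eIFiso4F. It read 5.61 to 6.00 on WT arrays, 6.08 to 6.31 in amiNAA10, 5.83 to 6.12 in the exon 1 line and 5.43 to 6.07 in the exon 2 line. Only the amiNAA10 arrays were clear of WT; the arrays of each HYPK line overlapped those of WT. Its rise of 0.38 in amiNAA10 (SE 0.14, adjusted p = 0.0482) lay just inside the threshold. The call was lost when 10 of the 16 single arrays were left out, with adjusted p up to 0.141 without WT replicate 1, and with reference genes (0.42, adjusted p = 0.0885). The mean of both HYPK lines differed from WT by 0.10 (95% interval -0.16 to 0.36).

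The cap-binding factors were not called in any comparison. EIF4E, the cap-binding subunit of eIF4F, read 4.47, 3.95, 4.64 and 4.72 in WT, with replicate 2 lowest. Its amiNAA10 arrays were at 4.58, 4.63, 4.53 and 4.51, its exon 1 arrays at 4.77, 4.79, 4.50 and 4.70, and its exon 2 arrays at 4.63, 5.12, 4.54 and 4.75. All mutant groups overlapped WT. The difference from WT was 0.11 in amiNAA10 (95% interval -0.22 to 0.45, adjusted p = 0.649) and 0.28 in the mean of both HYPK lines (95% interval -0.01 to 0.57, adjusted p = 0.158).

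EIFISO4E, its counterpart in eIFiso4F and known as a host factor that potyviruses need, also had overlapping groups. It was at 6.29, 5.81, 6.17 and 5.69 in WT and at 5.74, 6.15, 6.04 and 6.43 in amiNAA10. The exon 1 line ran from 5.72 to 6.10 and the exon 2 line from 5.69 to 6.16. Its SD of 0.29 in both WT and amiNAA10 was larger than any difference between genotype means. Its difference from WT was 0.10 in amiNAA10 (95% interval -0.25 to 0.45) and -0.10 in the mean of both HYPK lines (95% interval -0.40 to 0.20). The amiNAA10 interval includes 0.38, the rise of eIFiso4G2, but not 0.68, that of eIFiso4G1. Whether cap-binding and scaffold transcripts differ in their change was not tested.

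EIF4A1, an RNA helicase of the initiation complex, had the highest values of the members in every genotype, which says nothing of its abundance relative to theirs, since probe sets differ in response. Its WT arrays read 9.24, 9.19, 9.03 and 9.32 and its amiNAA10 arrays 10.01, 10.24, 10.12 and 9.36. The exon 1 line read 9.54, 9.53, 9.56 and 9.62, and the exon 2 line 9.78, 9.39, 9.63 and 9.78. Replicate 4 of amiNAA10 was well below the other amiNAA10 arrays and below all 8 HYPK arrays, though above all WT arrays; it was also the lowest amiNAA10 array for EIF4G, eIFiso4G1, eIFiso4G2, EIF3A, EIF3C, EIF3E and EIF4E. EIF4A1 rose by 0.74 in amiNAA10 (SE 0.16, adjusted p = 0.00176; 0.93 without that array) and by 0.41 in the mean of both HYPK lines (SE 0.14, adjusted p = 0.0384). The HYPK call was lost in 9 of the 16 fits that leave out 1 array, with adjusted p up to 0.125. Among these was the fit without exon 2 line replicate 4 (0.39, adjusted p = 0.0640). It ended as well with the replicate number as a block (adjusted p = 0.0613) and with reference genes (0.29, adjusted p = 0.168). Neither single HYPK line was called (0.37 and 0.45, adjusted p = 0.114 and 0.0653), though all 4 arrays of each lay above all WT arrays. With arrays of WT and the exon 1 line alone in the fit, that line was called (adjusted p = 0.0349), and with an intensity trend and robust variances the exon 2 line was (adjusted p = 0.0409). Without amiNAA10 replicate 4, both single lines were called (adjusted p = 0.0274 and 0.0139).

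EIF4A-2 (AT1G54270), the close paralogue of EIF4A1, rose with it, by 0.74 in amiNAA10 (SE 0.14, adjusted p = 0.000616) and by 0.48 in the exon 1 line (adjusted p = 0.0204). Over the 16 arrays the pair correlated with r = 0.83, and with r = 0.60 after the mean of each genotype was taken away. Probe sequences were not used here, so signal shared between these similar transcripts cannot be told apart from a common change.

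Among the eIF3 subunits, EIF3A and EIF3E changed in amiNAA10. EIF3A, the largest core subunit, read 7.04, 7.05, 6.83 and 6.77 in WT and 7.44, 7.51, 7.74 and 7.42 in amiNAA10. Its exon 1 arrays were at 6.93, 7.002, 6.98 and 6.91 and its exon 2 arrays at 6.90, 6.99, 6.75 and 6.78. The amiNAA10 arrays were above every other array, and both HYPK lines lay within or near the WT range. EIF3A rose by 0.60 in amiNAA10 (SE 0.11, adjusted p = 0.000403). In the mean of both HYPK lines it differed from WT by -0.02 (95% interval -0.22 to 0.17, adjusted p = 0.899).

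EIF3E, a subunit that in plants also interacts with the COP9 signalosome, had SDs of 0.02 in WT, 0.14 in amiNAA10, 0.03 in the exon 1 line and 0.04 in the exon 2 line. WT arrays read 8.04, 8.08, 8.07 and 8.05 and amiNAA10 arrays 8.59, 8.58, 8.67 and 8.36. The exon 1 arrays were at 8.19, 8.16, 8.22 and 8.20 and the exon 2 arrays at 8.22, 8.22, 8.16 and 8.13. WT was lowest, the arrays of both HYPK lines lay together above it, and amiNAA10 was highest, with no overlap between these 3 sets. The rise in amiNAA10 was 0.49 (SE 0.09, adjusted p = 0.000514). In the mean of both HYPK lines EIF3E differed from WT by 0.13 (SE 0.08), which limma did not call (adjusted p = 0.264), although 8 of 8 arrays were above all WT arrays and the exact permutation p was 0.00202, the smallest that 8 arrays against 4 can give. With reference genes that difference was 0.01 (adjusted p = 0.948).

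EIF3C and EIF3H were not called against WT in any line. EIF3C, another core subunit, ran from 6.97 to 7.21 in WT, 7.19 to 7.37 in amiNAA10, 7.01 to 7.16 in the exon 1 line and 6.79 to 7.07 in the exon 2 line. Its amiNAA10 arrays overlapped WT at one end, and its difference of 0.21 had an adjusted p of 0.108. EIF3H, which in Arabidopsis promotes translation of mRNAs with upstream open reading frames, read 6.52 to 6.76 in WT and 6.72 to 6.84 in amiNAA10 (difference 0.14, 95% interval -0.09 to 0.37). In the HYPK lines it ran from 6.54 to 6.91, overlapping both other groups.

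**Figure D2:**
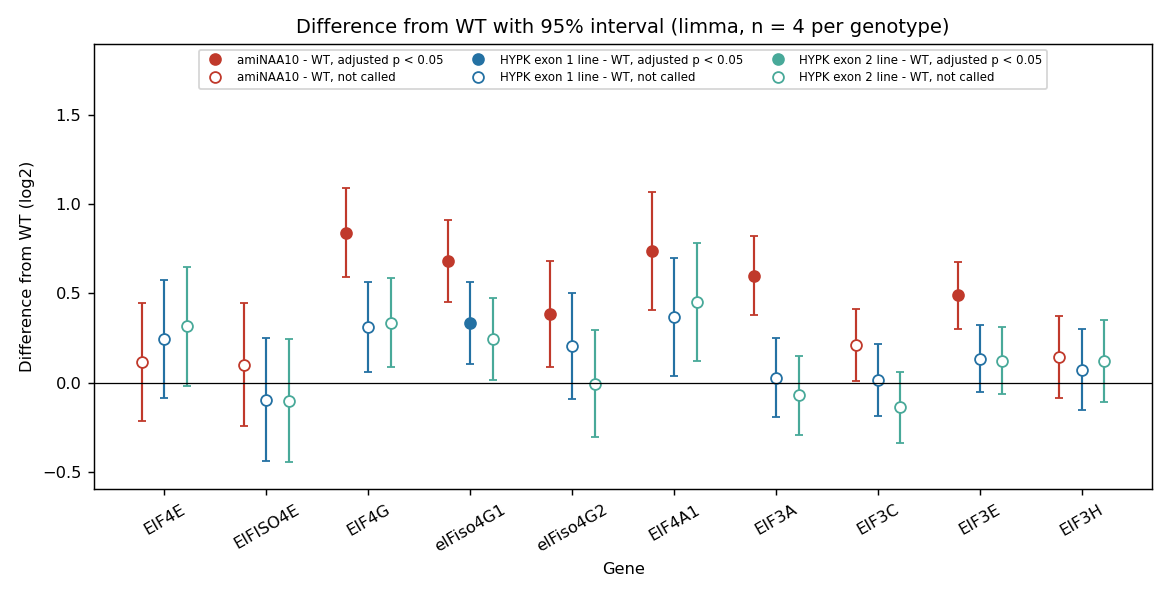
Difference from WT (log2, vertical axis) of each initiation factor in amiNAA10 and in each HYPK line, with the 95% interval from limma; filled points had an adjusted p under 0.05. The filled points are the 6 amiNAA10 rises, from 0.38 for eIFiso4G2 to 0.84 for EIF4G, and eIFiso4G1 at 0.34 in the exon 1 line.

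The direct comparison of the HYPK lines with amiNAA10 sets their means against each other without the WT mean. The WT arrays still enter the shared estimate of the spread. EIF4G, eIFiso4G1, EIF3A, EIF3C and EIF3E were lower in the HYPK lines, 5 of 10 members, beside 4.90% of all probe sets lower and 5.34% higher. No member was called higher. As the members were chosen with results known, nothing is read from the excess of lower calls. With only the arrays of these groups in the fit, 4 members were called. EIF3A differed by -0.62 (SE 0.09, adjusted p = 0.000647), or 65.0% of the amiNAA10 level, and all 8 HYPK arrays lay below all 4 amiNAA10 arrays. EIF4G differed by -0.52 (SE 0.10, adjusted p = 0.00502) and EIF3E by -0.36 (SE 0.08, adjusted p = 0.00711), again with no overlap. Because the share of all probe sets without overlap was not counted here, nothing is read from the lack of overlap. These 3 calls were kept when any single array was left out, with EIF3E at an adjusted p of 0.0379 at most and EIF4G at 0.0275 at most.

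The other calls of this comparison rested on fewer arrays. eIFiso4G1 was lower by -0.39 (adjusted p = 0.0142), and without amiNAA10 replicate 2 the difference was -0.31 with an adjusted p of 0.0752. EIF3C was lower by -0.27 (adjusted p = 0.0433), a call lost in 12 of the 16 fits that leave out 1 array, with adjusted p up to 0.142. With the replicate number as a block, EIF3C was not called (adjusted p = 0.0616). EIF4A1 was not called over all arrays (-0.33, adjusted p = 0.143), but it was without amiNAA10 replicate 4 (-0.52, adjusted p = 0.00609). It was also called with reference genes (-0.48, adjusted p = 0.0413). That scaling moved the median of all probe sets in this comparison by -0.15 and the share of calls that were higher from 52.2% to 14.8%. One of its reference genes, UBC9, was itself 0.56 higher in the HYPK lines than in amiNAA10 (adjusted p = 0.00608). EIF4E, EIFISO4E, eIFiso4G2 and EIF3H were not called, with differences of 0.17, -0.20, -0.28 and -0.05.

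Markers moved with the amiNAA10 rises. Of the 4 leaf markers, 3 fell in amiNAA10 (CAB1, RCA and CA1), with array means of 11.18 to 11.46 against 11.65 to 11.73 in WT. Of the 5 markers of other organs, PYK10, a beta-glucosidase abundant in roots, rose by 1.86 (adjusted p = 0.00274), and AG, a floral regulator near the dim end of the array, fell. PYK10 was uneven in amiNAA10, with arrays from 2.17 to 5.03 (SD 1.23), against 1.72 to 1.99 in WT. AP3, CRA1 and CRU3 were not called. In the mean of both HYPK lines CA1 (-0.50, adjusted p = 0.0169) and AG (-0.43, adjusted p = 0.00907) fell and the other 7 markers were not called. Their array means were 11.44 to 11.69 for leaf and 1.74 to 2.04 for other organs. Between the HYPK lines and amiNAA10, CAB1 and RCA were higher and PYK10 was lower in the HYPK lines. Their part in the differences of the initiation factors was not tested.

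**Figure D3:**
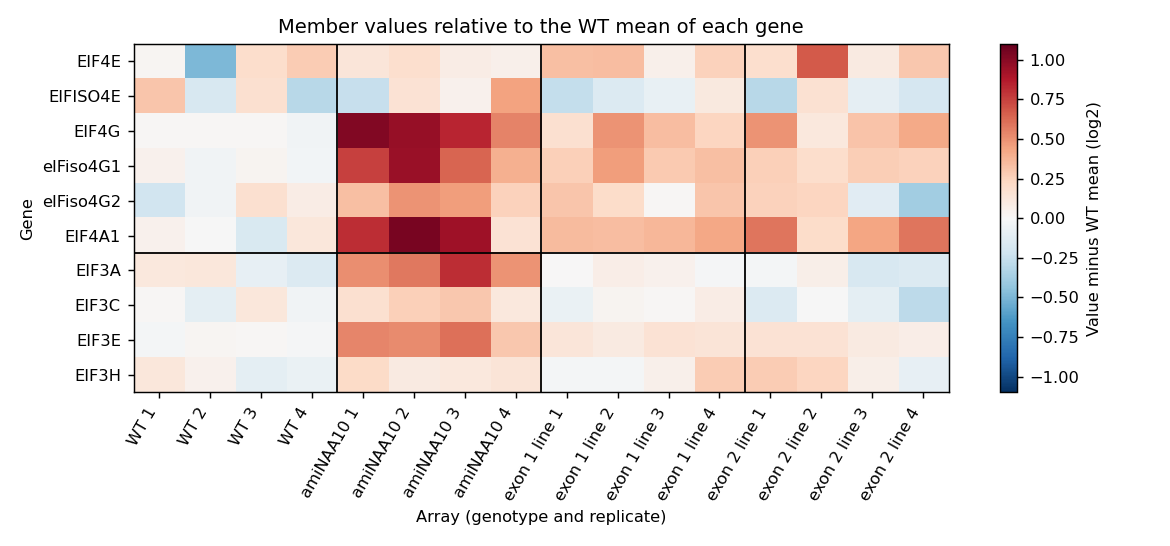
Value of each initiation factor (rows) on each of the 16 arrays (columns) minus the mean of its 4 WT arrays, in log2 units; red is above and blue below WT. EIF4G, eIFiso4G1, EIF4A1, EIF3A and EIF3E are red across the amiNAA10 arrays, palest on replicate 4 for EIF4A1, whereas EIFISO4E has arrays above and below the WT mean in every genotype.

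Members also varied together to different degrees. Over the 16 arrays, which include the genotype differences described above, the 45 pairs of members correlated with r from -0.21 to 0.95, with a median of 0.39. The scaffolds EIF4G and eIFiso4G1 were the most alike (r = 0.95), followed by EIF4G and EIF3E (0.91). EIF4E and EIF3A were the least alike (-0.21). With the mean of each genotype taken away, EIF4G and eIFiso4G1 still had the highest correlation (r = 0.77), each of them was correlated with EIF4A1 (0.72 and 0.74), and the median of all pairs was 0.15. EIFISO4E ran oppositely to EIF4G (r = -0.56) and to EIF4A1 (r = -0.55) within genotypes. These are descriptions over arrays that share a normalization.

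Among all other loci with a symbol, the most alike in pattern were named for each member by Pearson's r over the 16 arrays; picked from so many loci, such values are high by selection. EIF4G was most like ECT2, a reader of methylated adenosine in mRNA (r = 0.96), and TPL, the co-repressor TOPLESS (0.95). eIFiso4G1 was most like TPL (0.95) and MOS1 (0.93), known from suppression of the immune mutant snc1. EIF3A was most like NAP57, a pseudouridine synthase homologue of the nucleolus (0.95), and NSN1, a nucleolar GTPase (0.95). EIF3E was most like the importin gene IMPA-2 (0.96) and emb2734 (0.95), and EIF4A1 like EDA10 and emb1507 (both 0.91). EIF3C was most like AT3G51800, listed with the symbol ATG2, and the nucleolin gene NUC-L1 (both 0.86). The remaining members had lower r over the 16 arrays. It was 0.82 and 0.77 for EIF3H (EMB1586 and VDAC4) and 0.81 and 0.80 for eIFiso4G2 (NFXL2 and NMD3). For EIF4E (GAUT9 and PLP8) it was 0.80 and 0.78, and for EIFISO4E (KCS15 and RLP5) 0.77 and 0.75. With the mean of each genotype taken away, this order did not hold. EIF4E with PLP8 then had 0.82 and EIFISO4E with KCS15 0.80, against 0.70 for EIF4G with ECT2 and 0.51 for EIF3C with NUC-L1. EIF4A1 with emb1507 (0.87) and EIF3E with emb2734 (0.85) stayed high.

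To place the members in their pathway, 42 other translation loci that the reference names were counted in the same fit. In amiNAA10, 15 rose and 4 fell, with a median difference of 0.22; in the mean of both HYPK lines 7 rose and 3 fell, with a median of 0.04. The shares over all probe sets were 15.4% in each direction in amiNAA10 and 11.2% higher and 11.5% lower in the HYPK mean. The 4 that fell in amiNAA10 and the HYPK counts are near these. The lists were also chosen with earlier results known, and 44 of 86 listed loci were left out. Nothing is read from the 15 that rose in amiNAA10. Of 6 other eIF4 loci, EIF4A-2 and EIF4B2, a cofactor of the helicase (0.45, SE 0.13, adjusted p = 0.0182), rose in amiNAA10. EIF4B2 rose in the exon 1 line as well (0.53, adjusted p = 0.0116). EIF4E1B (AT1G29550), a relative of EIF4E, had means of 1.83 in WT and 2.17 in amiNAA10, near the level of 1.83 that bounds the dimmest 30% of probe sets, and rose in the exon 1 line (0.73, adjusted p = 0.0314). The cap-binding relatives eIF4E3 (means 1.42 and 1.44) and NCBP (6.84 and 7.10) were not called in any comparison.

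Of 8 other eIF3 loci, 3 rose in amiNAA10 and 0 fell, beside 15.4% of all probe sets higher and 15.4% lower. All 8 differences were above 0, with a median of 0.40, against -0.02 over all probe sets. The share of all probe sets above 0 was not counted, so nothing is read from this. TIF3I1 rose by 0.78 (SE 0.21, adjusted p = 0.00888), eIF3F by 0.47 (SE 0.13, adjusted p = 0.0123) and EIF3K by 0.42 (SE 0.12, adjusted p = 0.0104). TIF3I1 was dim, with means of 2.15 in WT and 2.93 in amiNAA10. Its WT arrays ran from 1.33 to 2.61, on both sides of the dim level of 1.83. TIF3C2, the paralogue of EIF3C, lay below the dim level in every genotype, with means of 1.69 in WT and 1.73 in amiNAA10. EIF3B-2 (means 1.59 and 2.02) and EIF3G2 (2.37 and 2.74) were dim too and not called. The brighter TIF3B1 (5.83 and 5.99) and EIF3G1 (6.70 and 6.83) were not called either. In the mean of both HYPK lines, TIF3I1 was the 1 eIF3 locus that rose (0.65, adjusted p = 0.0159). The alpha and beta subunits of eIF2, which carries the initiator tRNA, rose in amiNAA10 by 0.53 (adjusted p = 0.00897) and 0.33 (adjusted p = 0.0175). GCN2, the kinase that phosphorylates the alpha subunit, rose by 0.37 (adjusted p = 0.0476), and in the exon 2 line by 0.43 (adjusted p = 0.0420).

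The poly(A)-binding proteins, which join the mRNA tail to the scaffold, were mixed. Of 8, PAB2 rose (0.33, adjusted p = 0.0134) and PAB3 fell (-0.45, adjusted p = 0.0314) in amiNAA10. PAB3 was near the dim level of 1.83, with means of 2.49 in WT and 2.04 in amiNAA10. PAB8 fell in the exon 1 line (-0.58, adjusted p = 0.0309) and differed by -0.79 between the HYPK lines and amiNAA10 (SE 0.16, adjusted p = 0.00469), with no overlap of arrays. PAB4 (-0.47, adjusted p = 0.0244) and PAB2 (-0.30, adjusted p = 0.0258) were lower there too. Of 5 eIF5A and eIF6 loci, ELF5A-3 rose (0.53, adjusted p = 0.0250) and ELF5A-1 fell (-0.77, adjusted p = 0.00577) in amiNAA10. ELF5A-3 also rose in the exon 1 line (0.56, adjusted p = 0.0282) and the exon 2 line (0.53, adjusted p = 0.0452).

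Beyond initiation, LOS1, elongation factor eEF2, rose by 0.83 in amiNAA10 (SE 0.11, adjusted p = 2.79e-05) and eEF-1Bb1 by 0.59 (SE 0.13, adjusted p = 0.00219). Both were lower in the HYPK lines than in amiNAA10, by -0.67 (adjusted p = 0.000468) and -0.68 (adjusted p = 0.00145). The release factor loci ERF1-1, ERF1-2 and ERF1-3 were not called in any comparison. Among regulators, the TOR kinase gene, which drives translation when nutrients suffice, rose by 0.51 in amiNAA10 (SE 0.09, adjusted p = 0.000539), by 0.47 in the exon 1 line (adjusted p = 0.00228) and by 0.41 in the exon 2 line (adjusted p = 0.00828). Its partner RAPTOR1 rose in amiNAA10 (0.37, adjusted p = 0.0178), and ECIP1 fell (-0.48, adjusted p = 0.0166). ECIP1 also fell in the exon 2 line (-0.55) and was not called in the exon 1 line. The paralogous S6 kinase genes, targets of TOR signalling, moved in opposite directions. S6K2 rose by 1.84 (SE 0.26, adjusted p = 5.80e-05) and S6K1 fell by 0.82 (SE 0.12, adjusted p = 0.000105) in amiNAA10. The same signs were called in the exon 1 line (1.39 and -0.67), whereas in the exon 2 line S6K2 was called (1.13, adjusted p = 0.00879) and S6K1 was not (-0.21).

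**Figure D4:**
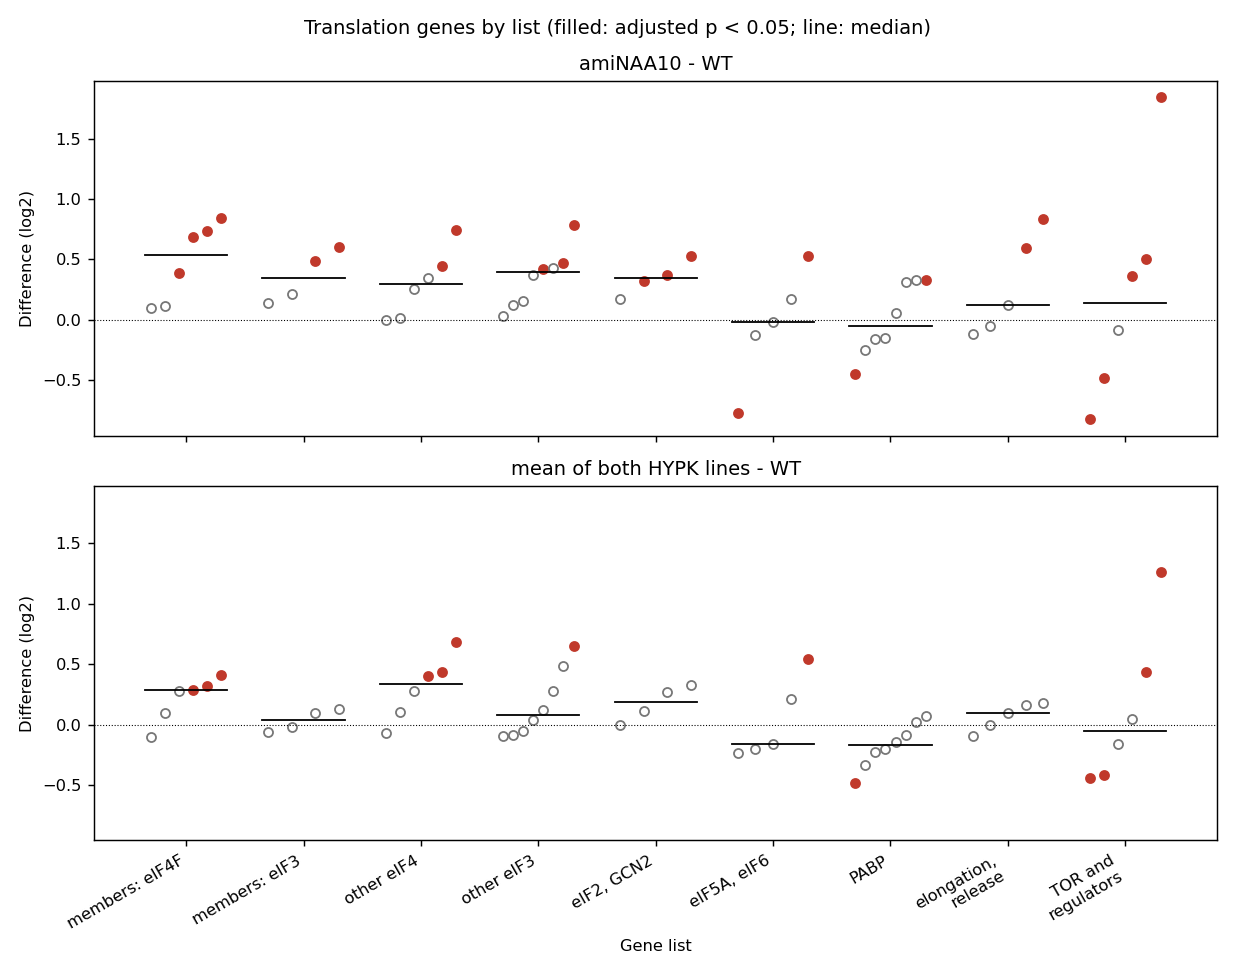
Difference from WT (log2, vertical axis) of the members and of 42 other translation loci by list, for amiNAA10 (top) and the mean of both HYPK lines (bottom); filled points had an adjusted p under 0.05 and the line is the median of a list. The comparisons share the WT arrays. S6K2 is the highest point in both panels, at 1.84 and 1.26.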

How the data were processed

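Leaf RNA was hybridised to 16 Affymetrix arrays, 4 per genotype. The deposited table holds log2 values made by the authors with RMA, per the submitters' processing notes; no source used here gives the software version, array design or probe annotation. Sorted columns differed by at most 0.0019, so a shift of total RNA in a genotype would be hidden. Array data have no read depth; the 4 arrays per genotype limit the precision. Symbols came from a RefSeq gene table of TAIR10.1 (27241 of 27826 loci matched).

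The members, gene lists and tests were chosen with earlier results of these data known. All arrays entered a limma 3.58.1 fit (R 4.3.3) with a mean per genotype, 6 two-sided contrasts and Benjamini-Hochberg adjustment over all probe sets at 0.05. Intervals are 95% and unadjusted. Exact two-sided permutation tests were run on members. The procedure was also run on simulated data with far fewer changed probe sets than were called in amiNAA10 against WT. The outcome is not given here, and no error rate is read from it. Named genes were all members, the targets, paralogues of members, the list loci with the smallest adjusted p and the 2 loci most alike in pattern. Of 86 listed translation loci, 44 were left out because the reference gives them no name. The series text names no block, so replicate numbers were not treated as pairs in the main fit. Deviations of same-numbered arrays from their genotype means correlated weakly (r from -0.29 to 0.30; 0.01 to 0.27 for replicate 1). Such weak correlations cannot exclude a shared batch. Alternatives were 4 reference genes, intensity trend with robust variances, leaving out the dimmest 30% of probe sets, only the groups compared, array weights, a replicate block and leaving out each array.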

Additional observations from a re-analysis of the deposited data

Results flagged for a closer look

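Within groups of 4 arrays, 2 of 40 combinations of member and genotype had an array set apart by Dixon's criterion, as many as the 1 in 20 that chance gives. EIF4G in WT replicate 4 was at 8.07 against 8.12 on the other WT arrays, and eIFiso4G1 in exon 2 line replicate 2 was at 7.70 against 7.76 to 7.77; both gaps are small in absolute size. The direct test between the mean of both HYPK lines and amiNAA10 set apart EIF4G (-0.52), eIFiso4G1 (-0.39), EIF3A (-0.62), EIF3C (-0.27) and EIF3E (-0.36), whose arrays and left-out fits are given above.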

How the results depend on the processing

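No called member difference changed sign under any alternative; of 1320 recomputed member differences, 1211 kept their sign and side of the threshold, 64 lost a call, 9 gained one and 36 uncalled ones, at most 0.12 in size, changed sign. In amiNAA10 against WT, 5 to 6 members and 15 to 19 of the other translation genes were called when single arrays were left out. In the exon 1 line against WT the 1 called member became 0 with reference genes, 0 with the replicate block, 2 with only the groups compared and 4 by unadjusted exact permutation; leaving out arrays gave 0 to 2 members and 5 to 9 of the other genes (9 over all arrays). In the exon 2 line, 0 members became 1 with intensity trend, 4 by exact permutation and 0 to 2 when arrays were left out; its 5 other genes became 3 with reference genes, 2 with only the groups compared, 3 with the replicate block and 3 to 6 without single arrays. Averaging the HYPK lines, 3 members became 0 with reference genes and 0 to 3 without single arrays, and 10 other genes became 6 to 11 (6 without WT replicate 3). Against amiNAA10, the HYPK lines had 3 to 6 called members (5 over all arrays) and 3 to 10 other genes (8 over all arrays, 13 with reference genes); without amiNAA10 replicate 2 both counts were 3, and without amiNAA10 replicate 3 and 1 the other genes were 3 and 4. For all these changed counts, the cause was not tested. Over all probe sets, the 3852 calls of the exon 2 line against WT became 2477 with only the groups compared, 2097 without exon 2 line replicate 4 and 2578 without WT replicate 3, and the 2850 calls between the HYPK lines and amiNAA10 became 1387 without amiNAA10 replicate 2 and 1496 without amiNAA10 replicate 3. The replicate block gave 5 members in amiNAA10 and 2 in the mean of both HYPK lines. The series text does not call the replicate numbers pairs, and 5 of 16 arrays correlated best with their own number. The promoter alternative was not run, because no promoter sequence was used here. No detection call against background was used.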
